A study of Mus musculus with 4 samples.

Results

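The genes of DNA replication licensing and of the replication fork were followed in mouse bone marrow cells lacking Hdac3, which encodes a histone deacetylase of the NCoR and SMRT corepressors. The group was a fixed list of 52 genes: origin recognition, MCM loading, helicase activation, the replicative polymerases, the clamp and its loader, and fork protection. The 52 genes were all measured, among 19938 genes with a probe set of their own, and each is given by its probe set with the highest mean. Each of the 52 had a mean log2 level of at least 6, so a filter at that level removed 0 of them.

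RNA came from LSK cells, marrow cells without lineage markers that carry Sca-1 and Kit and include the blood stem cells and earliest progenitors. The Hdac3-null cells were LSK/Flt3- cells of the genotype Vav-Cre/Hdac3Flox/-, with 2 arrays. They carry 1 floxed and 1 deleted Hdac3 allele and a Cre recombinase driven by Vav, a gene active throughout the blood system, so the deletion is not limited to stem cells. The wild-type cells were LSK/Flt3+ cells (WT Flt3+), with 1 array, and LSK/Flt3- cells (WT Flt3-), with 1 array. Flt3 is a receptor that LSK cells gain as they take on lymphoid potential. All mice were of the C57BL/6 background, and RNA for an array came from a pool of 5 to 30 mice. The age of the mice and whether wild-type mice carried Vav-Cre were not given in the labels. No label says that the null samples came from separate mice, so p-values measure how far these samples spread, which may be technical.

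Replication starts at origins that the origin recognition complex, ORC, marks in G1. CDC6 and CDT1 then load the ring-shaped MCM2-7 helicase, a step called licensing, which geminin blocks once S phase has begun. The kinase CDC7 with its activator DBF4 switches the loaded rings on, CDC45 and GINS join to form the moving helicase, and polymerases alpha, epsilon and delta copy the strands. Genes of this machinery are textbook targets of the E2F transcription factors, and in marrow their RNA is a familiar sign of cycling progenitors, while most long-term stem cells rest.

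One feature that the list was not chosen for is the promoter sequence. RefSeq promoter windows (GRCm38.p6, 250 bases before to 50 after the start) were found for 43 of the 52 genes. They were searched on both strands for the E2F-type words TTTGGCGC, TTTGGCGG, TTTCGCGC, TTTCGCGG, TTTGCCGC, TTTGCCGG, TTTCCCGC and TTTCCCGG, which can overlap one another when read on opposite strands. At least 1 word stood in the promoter of 21 of the 43 genes (48.8%), against 10.1% of the genes with a mean level of at least 6 and 5.14% of all genes with a promoter window. By subcomplex a word stood in 4 of 5 promoters of MCM2-7 genes, 3 of 6 of ORC genes and 1 of 5 of helicase activation genes. Related gene lists, read further below, also held words. They stood in 5 of 10 promoters of E2F and RB genes and 6 of 14 of origin control genes. The counts were 4 of 13 for fork chromatin, 4 of 16 for fork accessory and 2 of 15 for mitosis genes. The raised share was therefore not limited to the 52 genes. A match describes these letters and does not show binding. The stretch from 200 to 81 bases before the start is shown for Mcm5, Mcm6 and Mcm7, helicase subunits whose windows hold the words. It is also shown for Pola1 and Rpa3, the genes farthest above and below WT Flt3+ cells. Capitals mark the words. In Mcm5 and Mcm6 a word on each strand overlaps the other, and the Rpa3 window shown holds none.
Mcm5, chr8:75109309-75109428, plus strand: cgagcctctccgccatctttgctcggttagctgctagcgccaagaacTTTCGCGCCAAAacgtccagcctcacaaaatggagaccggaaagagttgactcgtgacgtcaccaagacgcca
Mcm6, chr1:128359786-128359905, minus strand: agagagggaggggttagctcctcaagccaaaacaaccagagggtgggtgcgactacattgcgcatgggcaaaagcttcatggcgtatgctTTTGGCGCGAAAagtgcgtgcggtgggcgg
Mcm7, chr5:138171964-138172083, minus strand: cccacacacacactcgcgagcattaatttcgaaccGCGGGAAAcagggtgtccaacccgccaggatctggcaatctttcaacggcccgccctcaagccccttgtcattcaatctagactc
Pola1, chrX:93632236-93632355, minus strand: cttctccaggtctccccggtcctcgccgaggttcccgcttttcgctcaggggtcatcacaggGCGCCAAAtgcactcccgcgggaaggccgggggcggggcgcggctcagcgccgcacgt
Rpa3, chr6:8259222-8259341, minus strand: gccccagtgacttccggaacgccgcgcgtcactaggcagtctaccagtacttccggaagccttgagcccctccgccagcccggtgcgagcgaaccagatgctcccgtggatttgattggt

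Several facts of the series stand beside every result. Hdac3 itself had log2 levels of 5.71 and 5.04 in null, against 6.33 in WT Flt3+ and 6.18 in WT Flt3- cells, and where its probes lie relative to the deleted part was not given. Xist, expressed from the inactive X of female cells, was at 10.84 and 9.67 in null, against 3.90 in WT Flt3+ and 4.23 in WT Flt3- cells, and the Y-linked Kdm5d was at 8.02 and 7.31 in null, 8.32 in WT Flt3+ and 8.66 in WT Flt3- cells. Sex makeup of the pools and genotype cannot be told apart. Kit, a marker of the sort, was at 10.77 and 10.36 in null, 10.11 in WT Flt3+ and 10.25 in WT Flt3- cells. Ly6a, which encodes Sca-1, was not analysed here. Flt3, the gene of the gate, was at 7.84 and 7.02 in null, 10.07 in WT Flt3+ and 9.18 in WT Flt3- cells. Its log2 difference was -1.75 for null minus WT Flt3- and 0.89 for WT Flt3+ minus WT Flt3- cells. The shared sort label therefore does not make null and WT Flt3- cells equal in Flt3 RNA. Cell makeup markers also differed among the arrays, with genotype for granulocyte-monocyte and lymphoid genes but not for the macrophage and erythroid sums. Of 10 granulocyte-monocyte progenitor markers, 8 lay above both wild-type arrays on both null arrays (23.0% of all genes did), and their summed linear signal was 7838 and 9515 in null, 4381 in WT Flt3+ and 3567 in WT Flt3- cells. Of 9 measured lymphoid priming markers, 6 lay below both wild-type arrays (11.7% of all genes did), with sums of 702 and 496 in null, 3694 in WT Flt3+ and 1841 in WT Flt3- cells. For 8 macrophage markers the sums were 483 and 544 in null, 1716 in WT Flt3+ and 367 in WT Flt3- cells, and for 8 measured erythroid markers 2778 and 5715 in null, 4576 in WT Flt3+ and 6262 in WT Flt3- cells. The part of these differences in the replication values was not tested, and in sorted pools fewer cells of a type and less RNA per cell cannot be told apart.

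The replication machinery as a whole had a median close to its wild-type level in Hdac3-null cells. Against WT Flt3- cells, the same sorted fraction, the 52 genes had a median log2 difference of -0.04, with 23 higher (65.0% of all genes were higher) and 29 lower, and a range from -0.71 for Rpa3 to 0.61 for Cdt1. The median over all 19938 genes was 0.09. Among the 8418 genes with a mean level of at least 6, as all members have, 4268 were higher and the median was 0.005. The background moved with the scaling, while the members' count moved only after centring on array medians. The count was 23 after quantile normalization, where 51.8% of all genes were higher, and 23 after cyclic loess, where 50.2% were. After centring it was 15, where 45.9% of all genes were higher. By the limma test adjusted over all genes 0 of 52 passed (adjusted p = 1 for each), where 0.0201% of all genes passed. At an unadjusted p under 0.05 the count was also 0, where 2.4% of all genes fell under it. DNA replication is named in the study's title. The arrays measure RNA of these genes and not DNA replication itself, so the comparison does not test that process.

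A missed threshold does not show equal levels, so the intervals are given. The standard error of a difference was 0.36 at the median over the 52 genes and ranged from 0.28 to 0.56. The 95% interval lay wholly within 2-fold either way for 23 of the 52 genes, against 61.3% of all genes and 48.6% of those with a mean level of at least 6. For the remaining genes the interval includes a 2-fold difference.

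Against WT Flt3+ cells, a comparison that shares the null arrays and also holds the difference of fraction, the median was 0.04, with 31 higher (56.9% of all genes were higher) and 21 lower, beside 0.05 over all genes. Among the 8418 genes with a mean level of at least 6, 4353 were higher and the median was 0.013. After quantile normalization 29 of the 52 were higher, where 52.8% of all genes were. After cyclic loess the count was 30, where 49.9% were, and after centring 26, where 51.4% were. The extremes were Rpa3 at -0.83 and Pola1 at 0.81. By limma 0 of 52 genes passed adjusted over all genes (adjusted p = 1 for each), where 0.316% of all genes passed, and 0 were under an unadjusted p of 0.05, where 3.44% were; that count was 1 without the mean-dependent prior and 1 with robust estimation. The interval lay within 2-fold for 25 of the 52 (62.2% of all genes).

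The contrast with the smallest error set the null arrays against the mean of both wild-type arrays. There 0 of 52 passed by limma (0.135% of all genes did), and 1 gene, Rpa3, was under an unadjusted p of 0.05 (3.79% of all genes were). The interval lay within 2-fold for 41 of the 52 (83.1% of all genes).

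**Figure D1:**
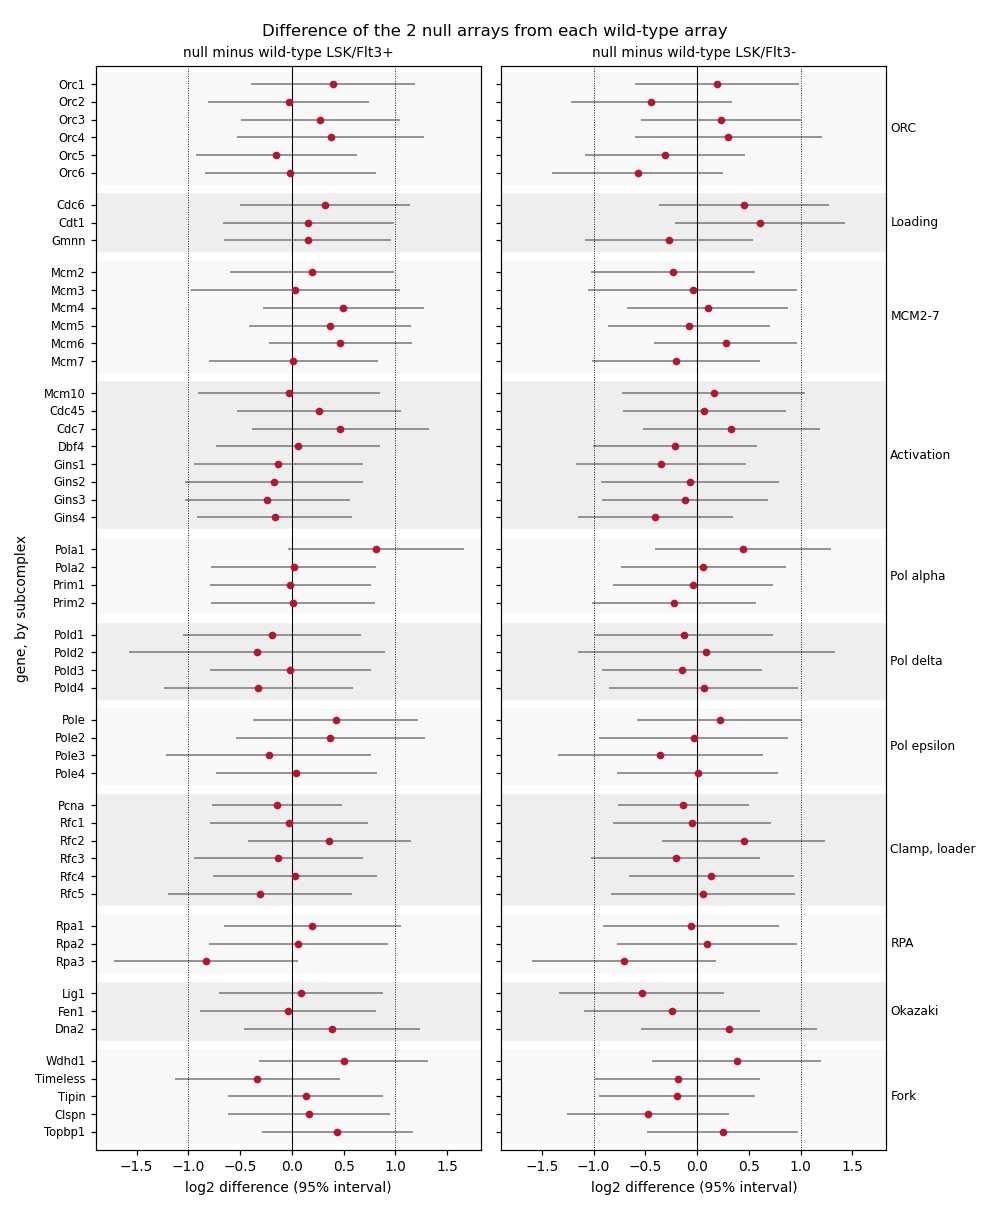
Log2 difference of the 2 null arrays from the WT Flt3+ array (left) and from the WT Flt3- array (right) for the 52 genes, by subcomplex. Points are limma estimates, bars are 95% intervals and dotted lines mark 2-fold; the interval of each gene crosses 0 in both panels, and on the left Rpa3 (-0.83) and Pola1 (0.81) lie farthest out.

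The null arrays were also set beside both wild-type arrays by order alone. On 12 of the 52 genes both null arrays lay above both wild-type arrays, and 23.0% of all genes did so. On 7 of 52 both lay below, and 11.7% of all genes did so. Both shares, 23.1% and 13.5% of the 52, were near these backgrounds; among genes with a mean level of at least 6 the backgrounds were 18.4% and 16.9%. The 12 were Orc1, Orc3, Cdc6, Mcm6, Cdc45, Cdc7, Pola1, Pole, Rfc2, Dna2, Wdhd1 and Topbp1, and the 7 were Orc2, Orc5, Gins3, Gins4, Pcna, Rpa3 and Timeless. After centring on the array medians 10 lay above, where 17.0% of all genes did, and 9 lay below, where 17.9% did.

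**Figure D2:**
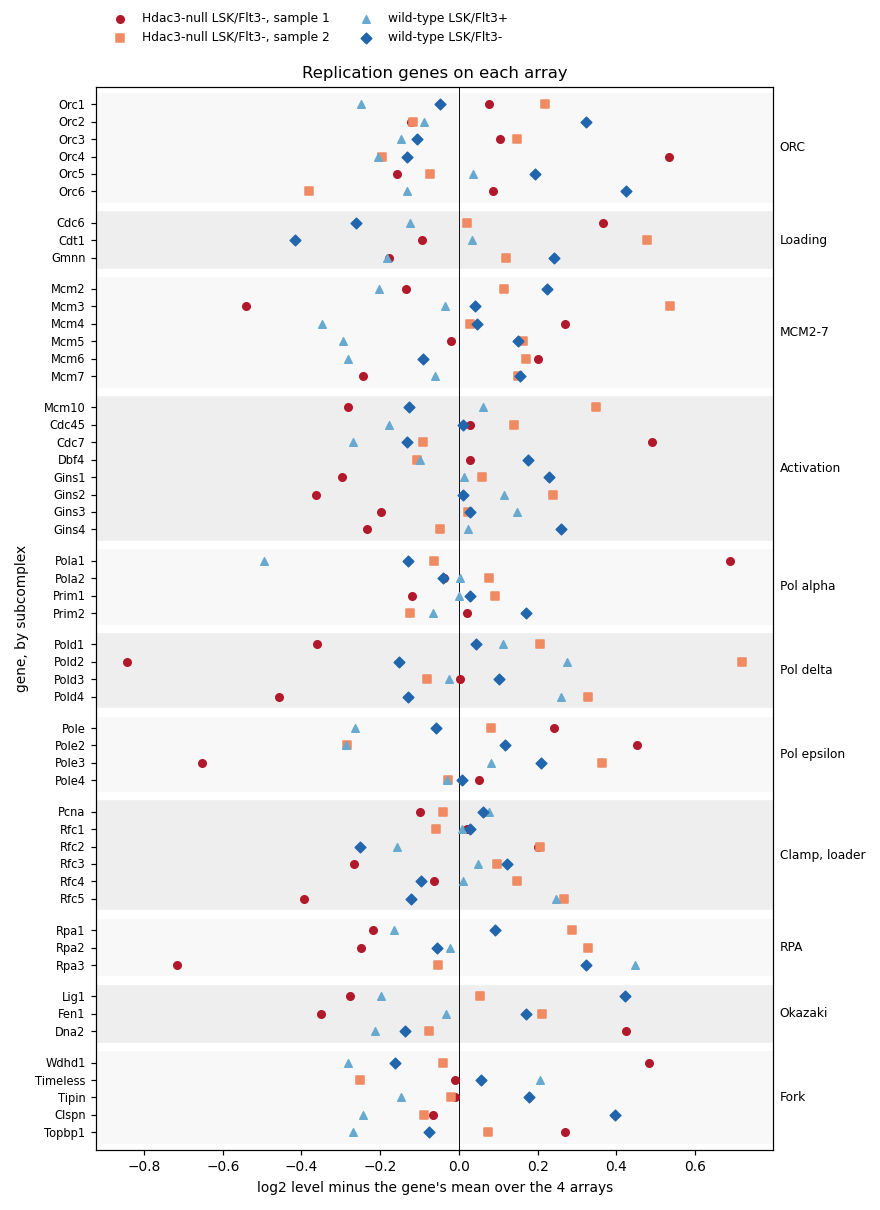
Log2 level of each of the 52 genes on each array minus that gene's mean over the 4 arrays, by subcomplex. Circles and squares are the 2 null samples, triangles WT Flt3+ and diamonds WT Flt3- cells; the null samples lie far apart for Pold2, Mcm3 and Pole3, and both lie outside both wild-type arrays for 19 genes.

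ORC, the ring of subunits that binds origins, had members on both sides of wild type. Orc6, its smallest and most loosely attached subunit, had log2 levels of 8.96 and 8.49 in null, 8.75 in WT Flt3+ and 9.30 in WT Flt3- cells. The difference from WT Flt3- cells was -0.57 ± 0.37 (SE) with a limma adjusted p of 1, but the null samples lay on either side of WT Flt3+, at a mean difference of -0.02. Orc2, a core subunit, was at 8.66 and 8.66 in null, 8.69 in WT Flt3+ and 9.10 in WT Flt3- cells. Its WT Flt3- value stood above the other 3 arrays, with a difference of -0.44 ± 0.35 (SE).

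Orc1, the ATPase subunit that is degraded and remade in each cycle, was at 7.23 and 7.37 in null, 6.91 in WT Flt3+ and 7.11 in WT Flt3- cells. Orc3, a core subunit, was at 9.16 and 9.20 in null, 8.90 in WT Flt3+ and 8.95 in WT Flt3- cells. For both, the null values were the 2 highest, with differences from WT Flt3- of 0.19 ± 0.36 (SE) for Orc1 and 0.23 ± 0.35 (SE) for Orc3. Orc5 was the reverse, at 6.54 and 6.63 in null, 6.74 in WT Flt3+ and 6.89 in WT Flt3- cells. After centring on the array medians Orc1 and Orc2 no longer separated the groups, and Orc2 also overlapped after quantile normalization. Orc4 was at 8.95 and 8.22 in null, 8.21 in WT Flt3+ and 8.28 in WT Flt3- cells, with 1 null sample high and the other at the wild-type level.

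Of the licensing factors, Cdc6 and Cdt1 had higher means in null than in WT Flt3- cells and geminin a lower one, and no difference passed the test. Cdt1, which brings MCM2-7 to ORC, was at 6.000 and 6.57 in null, 6.13 in WT Flt3+ and 5.68 in WT Flt3- cells. The WT Flt3+ value lay between the null samples, and the difference from WT Flt3- was 0.61 ± 0.37 (SE; 95% interval -0.21 to 1.43), with a limma adjusted p of 1. Cdc6, an ATPase that loads the helicase with ORC, was at 8.36 and 8.02 in null, 7.87 in WT Flt3+ and 7.74 in WT Flt3- cells. Both null values were above both wild-type values, by 0.46 ± 0.37 (SE) over WT Flt3-. Gmnn, which encodes the CDT1 inhibitor geminin, was at 8.19 and 8.48 in null, 8.18 in WT Flt3+ and 8.60 in WT Flt3- cells, so the null values lay between the wild-type ones.

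The MCM2-7 helicase genes ran one way between the wild-type fractions and both ways between genotypes within a fraction. Mcm2 was at 8.59 and 8.84 in null, 8.52 in WT Flt3+ and 8.95 in WT Flt3- cells. Mcm5 was at 8.85 and 9.03 in null, 8.57 in WT Flt3+ and 9.02 in WT Flt3- cells. Both had their lowest value in WT Flt3+ cells. Mcm4 was at 9.41 and 9.17 in null, 8.79 in WT Flt3+ and 9.18 in WT Flt3- cells. Mcm7 was at 8.55 and 8.94 in null, 8.73 in WT Flt3+ and 8.95 in WT Flt3- cells. Mcm6 was at 10.83 and 10.80 in null, 10.35 in WT Flt3+ and 10.54 in WT Flt3- cells. The WT Flt3+ array was below the WT Flt3- array for each of the 6 genes, with differences from -0.45 for Mcm5 to -0.08 for Mcm3 and a median of -0.30 between these 2 single arrays, which have no replicate check. The direction held for 6 of 6 genes after quantile normalization (median -0.26), cyclic loess (-0.25) and centring on array medians (-0.38).

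In null cells the MCM2-7 genes had a median difference of -0.06 from WT Flt3- cells, with 2 of 6 higher (1 of 6 after centring on array medians). From WT Flt3+ cells it was 0.28, with 6 of 6 higher; after quantile normalization 4 of 6 were higher, after cyclic loess 5 and after centring 4, and the differences of Mcm3 and Mcm7 as reported were 0.03 and 0.015. The 2 comparisons share the null arrays. Mcm6 was the 1 of the 6 above both wild-type arrays on both null arrays, by 0.28 ± 0.31 (SE) over WT Flt3- and 0.47 ± 0.31 (SE) over WT Flt3+ cells (limma adjusted p = 1 for each). Mcm3 had the widest replicate gap of the 6, at 8.62 and 9.70 in null, 9.12 in WT Flt3+ and 9.20 in WT Flt3- cells. Both wild-type values fell between the null samples, and null sample 1 minus null sample 2 was -1.08.

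**Figure D3:**
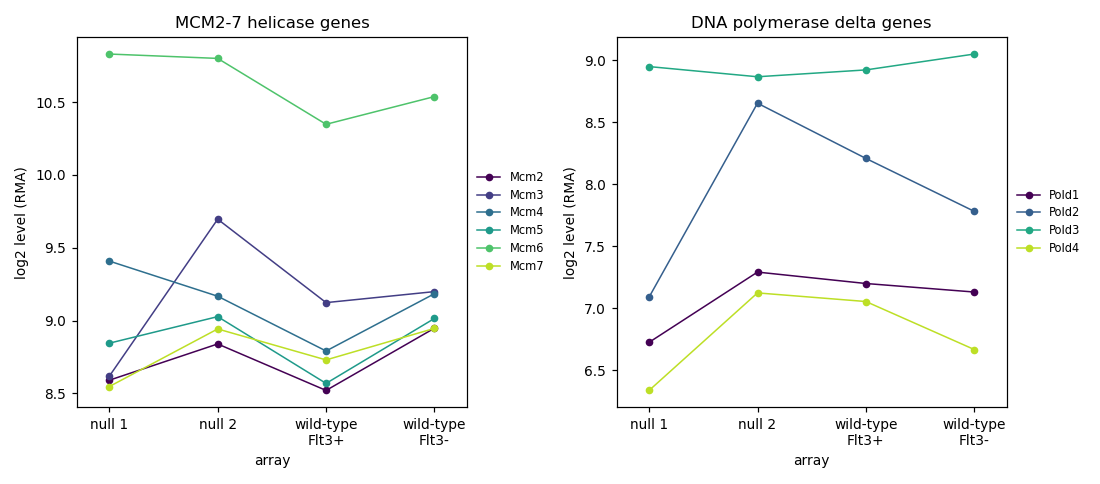
Log2 RMA level of the 6 MCM2-7 genes (left) and the 4 DNA polymerase delta genes (right) on the 4 arrays, with a line linking the values of 1 gene. Each MCM2-7 gene is lower on the WT Flt3+ array than on the WT Flt3- array, and for Pold2 null sample 1 minus null sample 2 is -1.56.

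Helicase activation genes, which turn loaded MCM rings into moving helicases, had a median of -0.09 against WT Flt3- cells, with 3 of 8 higher. Cdc7, the kinase, was at 7.25 and 6.67 in null, 6.49 in WT Flt3+ and 6.63 in WT Flt3- cells. Its null values were the 2 highest, but null sample 2 exceeded WT Flt3- by 0.04, and the mean difference was 0.33 ± 0.38 (SE). Dbf4, its activator, was at 8.39 and 8.26 in null, 8.27 in WT Flt3+ and 8.54 in WT Flt3- cells, and the groups overlapped. Cdc45, the helicase cofactor, was at 8.38 and 8.50 in null, 8.18 in WT Flt3+ and 8.37 in WT Flt3- cells. Its null values were the highest by a small margin, and the difference from WT Flt3-, 0.07, turned to -0.05 after centring on array medians.

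The 4 GINS genes, whose products hold CDC45 to the MCM ring, each had a lower mean in null than in WT Flt3- cells. Of all 19938 genes 6968 were lower, and of the 8418 with a mean level of at least 6, 4150 were. For Gins2 the difference was -0.07, and null sample 2 was the highest of the 4 arrays. Gins4 was at 9.51 and 9.69 in null, 9.76 in WT Flt3+ and 9.999 in WT Flt3- cells, a difference of -0.40 ± 0.34 (SE; 95% interval -1.15 to 0.35) with a limma adjusted p of 1. Gins3 was at 7.05 and 7.27 in null, 7.40 in WT Flt3+ and 7.28 in WT Flt3- cells. For Gins3 and Gins4 both null arrays lay below both wild-type arrays. Gins1 was at 8.05 and 8.41 in null, 8.36 in WT Flt3+ and 8.58 in WT Flt3- cells. Gins2 was at 8.45 and 9.05 in null, 8.93 in WT Flt3+ and 8.82 in WT Flt3- cells. Both overlapped wild type. Mcm10, a scaffold of the starting fork, was at 7.36 and 7.98 in null, 7.70 in WT Flt3+ and 7.51 in WT Flt3- cells, with the wild-type values between the null samples.

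Polymerase alpha with primase, which lays the RNA-DNA primers, held the gene farthest above WT Flt3+ cells. Pola1, the catalytic subunit, was at 10.85 and 10.10 in null, 9.67 in WT Flt3+ and 10.03 in WT Flt3- cells. Both null values were above both wild-type values, but null sample 2 exceeded WT Flt3- by 0.07 while null sample 1 exceeded it by 0.82. The differences were 0.81 ± 0.38 (SE; 95% interval -0.04 to 1.66) from WT Flt3+ and 0.44 ± 0.38 (SE) from WT Flt3- cells, with a limma adjusted p of 1 for each. Pola1 lies on the X chromosome, and the pools differed in Xist, whose part in its values was not tested. The differences from WT Flt3- cells were 0.06 for the partner subunit Pola2, -0.04 for the primase subunit Prim1 and -0.22 for the primase subunit Prim2.

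Polymerase delta, which copies the lagging strand, held the gene with the widest replicate gap. Pold2, an accessory subunit, was at 7.09 and 8.65 in null, 8.21 in WT Flt3+ and 7.78 in WT Flt3- cells. Null sample 1 was the lowest array and null sample 2 the highest, so the mean difference of 0.09 ± 0.56 (SE) carries the largest error of the 52 genes. Pold4, a small accessory subunit, was at 6.34 and 7.13 in null, 7.06 in WT Flt3+ and 6.67 in WT Flt3- cells. Pold1, the catalytic subunit, was at 6.73 and 7.29 in null, 7.20 in WT Flt3+ and 7.13 in WT Flt3- cells. Both had the lowest and highest value in the null samples, as Pold2 did. Pold3, another accessory subunit, was at 8.95 and 8.87 in null, 8.92 in WT Flt3+ and 9.05 in WT Flt3- cells, a range of 0.18.

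Polymerase epsilon, which copies the leading strand, had a median of -0.01 against WT Flt3- cells. Pole, the catalytic subunit, was at 8.45 and 8.29 in null, 7.94 in WT Flt3+ and 8.15 in WT Flt3- cells. Both null values were the highest, by 0.22 ± 0.36 (SE) over WT Flt3-. Pole2, an accessory subunit, was at 8.21 and 7.47 in null, 7.47 in WT Flt3+ and 7.87 in WT Flt3- cells. Pole3, a histone-fold subunit, was at 8.25 and 9.27 in null, 8.99 in WT Flt3+ and 9.11 in WT Flt3- cells. The null samples differed in opposite directions for Pole2 and Pole3. Pole4 had the narrowest range of the 52 genes, 0.08 over the 4 arrays.

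The sliding clamp and its loader held a gene with near-equal null values. Rfc2, a small loader subunit, was at 8.62 and 8.62 in null, 8.26 in WT Flt3+ and 8.17 in WT Flt3- cells. Both null values lay above both wild-type arrays, by 0.45 ± 0.35 (SE) over WT Flt3- and 0.36 ± 0.35 (SE) over WT Flt3+ cells (limma adjusted p = 1 for each). Pcna, the clamp itself, was at 11.51 and 11.57 in null, 11.68 in WT Flt3+ and 11.67 in WT Flt3- cells. Its second probe set was at 11.53 and 11.54 in null, 11.68 in WT Flt3+ and 11.62 in WT Flt3- cells. Both probe sets placed the null arrays lowest, and the first gave a difference of -0.13 ± 0.28 (SE; 95% interval -0.76 to 0.50) from WT Flt3-. Where these probe sets lie in the genome was not checked, so they may not be independent measures of Pcna. Rfc1, the large loader subunit, varied by 0.09 over the 4 arrays. The small loader subunits Rfc3, Rfc4 and Rfc5 overlapped wild type, at -0.21, 0.14 and 0.06 from WT Flt3-.

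Replication protein A coats single-stranded DNA at the fork. Rpa3, its smallest subunit (probe set 10543114), was the gene farthest below wild type in both null comparisons, at 7.51 and 8.17 in null, 8.67 in WT Flt3+ and 8.55 in WT Flt3- cells. Both null arrays were below both wild-type arrays, and null sample 1 minus null sample 2 was -0.66. The differences were -0.83 ± 0.40 (SE; 95% interval -1.72 to 0.06) from WT Flt3+ and -0.71 ± 0.40 (SE; 95% interval -1.59 to 0.18) from WT Flt3- cells, with a limma adjusted p of 1 for each. Against the mean of both wild-type arrays the difference was -0.77 (limma unadjusted p = 0.0396, adjusted p = 0.9999). Over 7 other settings the unadjusted p ranged from 0.0297 to 0.0835 and the adjusted p from 0.917 to 1. Its second probe set had the same order, at 6.67 and 7.10 in null, 7.37 in WT Flt3+ and 7.28 in WT Flt3- cells. Where that probe set lies in the genome was not checked, so it may not be an independent measure of Rpa3. The larger subunits overlapped wild type. Rpa1 was at 7.62 and 8.12 in null, 7.67 in WT Flt3+ and 7.93 in WT Flt3- cells. Rpa2 was at 7.75 and 8.33 in null, 7.98 in WT Flt3+ and 7.95 in WT Flt3- cells.

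Among genes that finish Okazaki fragments, Lig1, the ligase, was at 8.79 and 9.12 in null, 8.87 in WT Flt3+ and 9.49 in WT Flt3- cells. Its WT Flt3- value was the highest of the 4, with a difference of -0.53 ± 0.36 (SE) from that array and 0.09 ± 0.36 (SE) from WT Flt3+ cells. Fen1, the flap nuclease, was at 6.41 and 6.97 in null, 6.73 in WT Flt3+ and 6.93 in WT Flt3- cells, and the groups overlapped. Dna2, a nuclease-helicase for long flaps, was at 8.28 and 7.78 in null, 7.65 in WT Flt3+ and 7.72 in WT Flt3- cells. Its null values were the 2 highest, with null sample 2 above WT Flt3- by 0.06.

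The fork protection genes had members on both sides. Wdhd1, which ties polymerase alpha to the helicase, was at 9.97 and 9.44 in null, 9.20 in WT Flt3+ and 9.32 in WT Flt3- cells. Topbp1, which helps load CDC45 and activates the checkpoint kinase ATR, was at 10.43 and 10.24 in null, 9.89 in WT Flt3+ and 10.09 in WT Flt3- cells. Both were above wild type on both null arrays, by 0.39 ± 0.37 (SE) for Wdhd1 and 0.25 ± 0.33 (SE) for Topbp1 over WT Flt3-. Timeless, a fork-pausing factor, was at 6.95 and 6.71 in null, 7.17 in WT Flt3+ and 7.02 in WT Flt3- cells, with both null values below both wild-type arrays and a difference of -0.19 ± 0.36 (SE) from WT Flt3-. Its partner Tipin was at 9.48 and 9.47 in null, 9.35 in WT Flt3+ and 9.67 in WT Flt3- cells, and the groups overlapped. Clspn, which encodes the checkpoint mediator claspin, was at 8.46 and 8.44 in null, 8.29 in WT Flt3+ and 8.93 in WT Flt3- cells. As for Lig1 and Orc6, its WT Flt3- value lay above the other 3 arrays, with a difference of -0.47 ± 0.35 (SE).

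Between the wild-type fractions, 36 of the 52 genes were lower in WT Flt3+ than in WT Flt3- cells and 16 were higher, where 43.1% of all genes and 52.2% of those with a mean level of at least 6 were lower. The median difference was -0.13, beside 0.04 over all genes, and 0 of the 52 were 2-fold apart (1.1% of all genes were). The largest were Clspn at -0.64, Lig1 at -0.62 and Orc6 at -0.55, and on the other side Cdt1 at 0.45 and Pold2 at 0.43. After quantile normalization 34 were lower, with a median of -0.08, where 51.8% of all genes were lower. After cyclic loess 32 were lower, with a median of -0.07, where 50.1% of all genes were. After centring on array medians 40 were lower, with a median of -0.21, where 56.3% of all genes were.

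The null samples often differed more from each other than their mean did from wild type. The distance of the null mean from WT Flt3- cells exceeded the distance between the null samples for 20 of the 52 genes, and for 38.1% of all genes. On 3 genes, Pold2, Mcm3 and Pole3, null sample 1 was at least 2-fold below null sample 2, and on 0 genes it was 2-fold above. Of all genes 2.82% were 2-fold apart either way. Among the 8418 genes with a mean level of at least 6, null sample 1 was 2-fold below for 271 and 2-fold above for 140. Null sample 1 was lower for 32 of the 52 (35.0% of all genes and 53.2% of those with a mean level of at least 6 were lower), with a median of -0.11 beside 0.14 over all genes. The members' median was -0.04 after quantile normalization, -0.06 after cyclic loess and -0.29 after centring on array medians, beside 0.0, 0.0001 and -0.04 over all genes. Taken alone, null sample 1 gave a median of -0.16 from WT Flt3- cells, with 19 of 52 higher, and null sample 2 gave 0.04, with 28 higher. The sign of the list's median therefore depended on the null sample.

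This replicate gap ran with the genomic span of the gene (RefSeq, GRCm38.p6, all 52 genes found). Across the 52 genes Spearman's rho between span and the difference of null sample 1 from null sample 2 was 0.60. The 26 genes with the shorter spans, up to 20126 bases, had a median difference of -0.33, with 22 lower on null sample 1. The 26 with longer spans had a median of 0.05, with 10 lower. Pole3, with 1217 bases, was at -1.02, Pold4, with 1742, at -0.79, and Pola1, with 327622, at 0.75. Over 83 related pathway genes outside the 52 rho was 0.34. Over 8413 genes with a mean level of at least 6 rho was 0.28, and over 19919 genes it was 0.02. The genes share the 4 arrays and are not replicates. Against WT Flt3- cells rho over the 52 genes was 0.45 for null sample 1 and -0.20 for null sample 2. Over the 8413 genes with a mean level of at least 6 these values were 0.11 and -0.23. Over the same 52 genes rho with span was 0.51 for null minus WT Flt3+, 0.20 for null minus WT Flt3- and -0.37 for WT Flt3+ minus WT Flt3-. In the same order, rho over the 8413 genes was 0.09, -0.07 and -0.18.

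**Figure D4:**
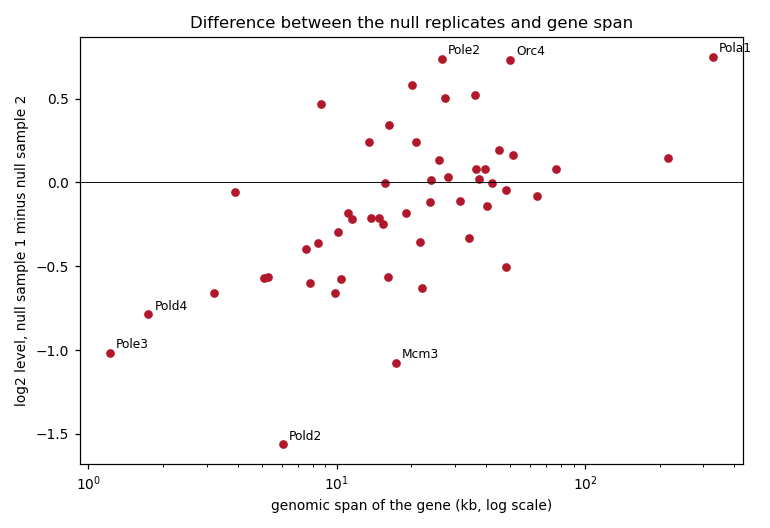
Log2 level on null sample 1 minus null sample 2 against the genomic span of the gene, in kb on a log scale, for the 52 genes. The shortest genes, Pole3 and Pold4, lie at -1.02 and -0.79, and the longest, Pola1, lies at 0.75.

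Genes with and without an E2F-type word in the promoter had like medians in the comparison within the fraction. The 21 genes with a word had a median of -0.03 from WT Flt3- cells, with 10 higher, and the 22 without had a median of -0.04, with 10 higher. Against WT Flt3+ cells the medians were 0.17 with 17 of 21 higher and -0.03 with 8 of 22 higher. Between the wild-type arrays, WT Flt3+ was higher than WT Flt3- for 5 of the 21 and 9 of the 22. These are descriptions of the same arrays without a test.

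Other genes of the pathway were read in the same fit. Of 83 measured genes in 5 lists of origin control, fork chromatin, fork accessory, E2F and RB, and mitosis genes, 0 passed the limma test adjusted over all genes in either null comparison. Against WT Flt3- cells 1 was higher and 1 lower at an unadjusted p under 0.05, a share of the 83 near the 2.4% of all genes. The lower one was Ccne1, which encodes cyclin E1, the partner of CDK2 at the start of S phase, at 6.77 and 6.68 in null, 6.94 in WT Flt3+ and 7.62 in WT Flt3- cells, a difference of -0.89 ± 0.35 (SE) with a limma adjusted p of 1. The higher one was Pclaf, a PCNA-binding protein gene, at 8.99 and 8.90 in null, 8.74 in WT Flt3+ and 8.08 in WT Flt3- cells, a difference of 0.86 ± 0.35 (SE) with a limma adjusted p of 1. In both genes, the WT Flt3- value stood apart. Pclaf had 2 probe sets, and only the one with the higher mean is given. Where that set lies in the genome was not checked.

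The E2F partner gene Tfdp1 was at 10.01 and 10.01 in null, 9.24 in WT Flt3+ and 9.45 in WT Flt3- cells. Its null values were the 2 highest, by 0.77 ± 0.33 (SE) over WT Flt3+ (limma unadjusted p = 0.0428, adjusted p = 1). Tfdp1 also had 2 probe sets, and only the one with the higher mean is given. Rnaseh2b, a subunit of the RNase H2 nuclease, was at 6.15 and 6.995 in null, 7.41 in WT Flt3+ and 7.23 in WT Flt3- cells, below wild type on both null arrays. Mms22l, a fork repair factor, was at 8.83 and 8.17 in null, 7.85 in WT Flt3+ and 7.96 in WT Flt3- cells. The median difference from WT Flt3- cells was 0.08 for origin control, 0.03 for fork chromatin, 0.07 for fork accessory, -0.07 for E2F and RB and -0.10 for mitosis genes. Both null arrays lay above both wild-type arrays for 23.0% of all genes and 18.4% of those with a mean level of at least 6. They did so for 7 of 19 origin control, 3 of 13 fork chromatin and 8 of 21 fork accessory genes. For E2F and RB genes the count was 1 of 13 and for mitosis genes 0 of 17. Counts below both wild-type arrays were 3, 2, 2, 2 and 6 in the same order. Below, the backgrounds were 11.7% of all genes and 16.9% of those at that level. These list counts were not repeated under other scalings. Nusap1, a spindle protein gene of the mitosis list, lay below, at 9.21 and 9.49 in null, 9.69 in WT Flt3+ and 9.67 in WT Flt3- cells. Chtf8, of the alternative clamp loader, had a replicate gap like that of Pold2, at 8.58 and 10.12 in null, 9.67 in WT Flt3+ and 8.72 in WT Flt3- cells.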

How the data were processed

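Expression in 4 sorted mouse marrow pools was measured on Affymetrix arrays. The deposited values are log2 levels per probe set; per the submitters' processing notes the authors used RMA with affy 1.23. The genome build was not given in the labels. Array medians were 5.60 and 5.30 for null, 5.36 for WT Flt3+ and 5.32 for WT Flt3- cells, so how the arrays were scaled is not settled. Of 35556 probe sets, 21789 had 1 gene symbol, 1621 several and 12146 were not listed; each of 19938 genes kept its highest-mean probe set.

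A single limma 3.58.1 model (R 4.3.3) with 3 groups and a mean-dependent prior took in the 4 arrays, with two-sided tests and Benjamini-Hochberg adjustment over all genes at 0.05. The null pair gives the 1 residual degree of freedom (prior 9.005), so each wild-type array is assumed to vary like the null arrays; precision is limited by having 4 arrays. The model was run on simulated data drawn from its own prior, which checks the code and not the design.

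The members and lists were chosen with earlier results of these data known. Members were named in full where they were among the 10 farthest from 0 in either null comparison, under an unadjusted p of 0.05 or outside both wild-type arrays, with at least 1 per subcomplex; levels of other members were added after their values were seen. Of each pathway list the 3 genes farthest from WT Flt3- could be named.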

Additional observations from a re-analysis of the deposited data

How the results depend on the processing

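No paired analysis was possible because the wild-type groups have 1 array each and share fewer than 2 replicate numbers with the null group. By limma, 0 of the 52 members passed in the 3 null contrasts under the 7 other tested settings. The count over all genes against WT Flt3-, 4 as reported, was 0 after quantile normalization, 2 after cyclic loess, 2 after centring on array medians and 25 with robust estimation. Against WT Flt3+ it was 63 as reported, 99 after centring, 114 with robust estimation and 22 among genes whose mean level reached 6. Against both wild-type arrays it was 27 as reported, 17 after quantile normalization, 53 after cyclic loess, 81 after centring, 44 with the mean of all probe sets, 97 with robust estimation and 10 with the level filter. The members' median against WT Flt3- was -0.16 after centring. With 1 null sample left out, which leaves no residual degree of freedom and no test, it ran from -0.16 to 0.042 against WT Flt3-, from -0.015 to 0.14 against WT Flt3+ and from -0.10 to 0.11 against both. After centring, the differences of Cdc45 and Mcm4 from WT Flt3- turned to -0.046 and -0.014. The causes were not tested. The scalings of the wild-type pair, the null pair and the counts outside both wild-type arrays were chosen after seeing the data.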
